A study of Bos taurus with 40 samples.

Results

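The 10 libraries described here, of 40 in the series, hold the endometrium of cattle heifers on day 16, with 5 libraries from the uterine horn ipsilateral to the corpus luteum and 5 from the contralateral horn. They were chosen by the horn and the day in their titles. The endometrium is the inner lining of the uterus, the corpus luteum is the progesterone-secreting gland left on the ovary after ovulation, and the ipsilateral horn is the one on its side. The heifers were synchronized and no other treatment is named; days are counted from estrus in the design text and as pregnancy days in the labels, and the sources used here do not say whether an embryo was present. The other 30 libraries come from both horns on days 5, 7 and 13. The series asked whether the endometrium of the horns differs in gene expression.

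Progesterone from the corpus luteum reaches both horns and prepares the endometrium to secrete the fluid that feeds the conceptus. In a pregnant cow the elongating conceptus secretes interferon tau at about this stage, which induces interferon-stimulated genes in the endometrium and holds back the oxytocin receptor and the release of prostaglandin that would end the life of the corpus luteum. Whole endometrium mixes luminal and glandular epithelium, stroma, vessels and immune cells, so that in these bulk libraries fewer cells of a type and less RNA per cell cannot be told apart.

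Higher in the ipsilateral horn on day 16 were genes for splicing factors, centrosome proteins, cohesin and condensin subunits and chromatin regulators, most of them by less than 2-fold. PPIG, a cyclophilin of nuclear speckles, was 2.00-fold higher, CEP290, a protein of the base of the cilium, 1.86-fold, and SMC3, a core subunit of cohesin, 1.65-fold. Fewer genes were lower, among them CHPF and EXT2, which lengthen the sugar chains of proteoglycans, and ACTB, cytoplasmic beta-actin. Of 18700 genes tested, 678 (3.63%) were higher and 56 (0.299%) lower in the ipsilateral horn by edgeR's quasi-likelihood test at an adjusted p below 0.05, with 5 libraries a horn. DESeq2 on the same libraries called 1251 genes higher and 481 lower, a share of higher calls of 72.2% against 92.4% in edgeR.

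One ipsilateral library, tag 5-137, stood apart from the rest. The first principal component of all 40 libraries (42.1% of the variance, 2000 genes) separated days 5 and 7 from days 13 and 16, and this library scored 6.91 on it. Scores ran between 50.3 and 56.8 in the other 4 ipsilateral libraries of day 16 and between 43.97 and 52.7 in the contralateral ones. Without it the test called 437 of 18906 genes (2.31%), 427 higher (2.26%) and 10 lower (0.0529%). Of the genes called with it, 420 of 678 and 7 of 56 passed again, and all 678 and all 56 kept their sign, with adjusted p at most 0.133 and 0.115. The genes were chosen on these same libraries, so kept signs here and in the other fits of day 16 describe them and are no support.

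**Figure D1:**
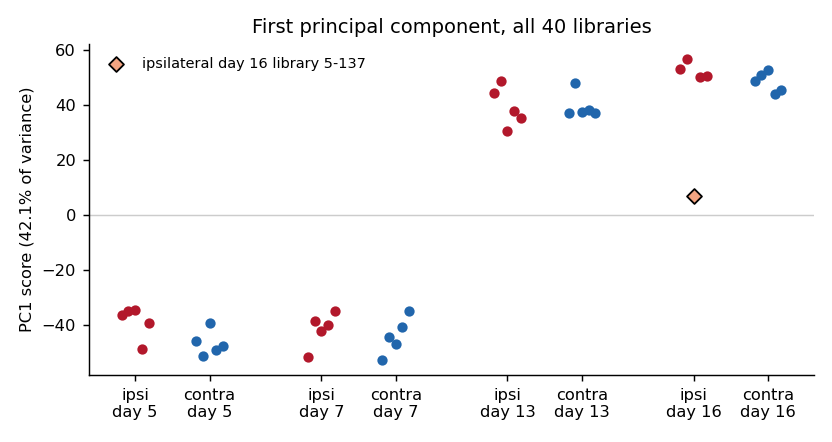
Scores of the 40 libraries on the first principal component (y axis, no unit), by horn and day (x axis), with 1 point per library; the diamond is ipsilateral day 16 library 5-137. That library lies at 6.91, between the early and the late days, while the other 9 day 16 libraries lie between 43.97 and 56.8.

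The libraries held 30.5 to 33.5 M reads on genes in the ipsilateral horn and 32.03 to 33.9 M in the contralateral horn. Exact two-sided permutation tests of 5 against 5, which cannot give less than p = 0.00794, were run on 6 library measures. The number of genes with a read did not overlap, at 22802 to 23093 in ipsilateral and 22667 to 22789 in contralateral libraries (exact permutation p = 0.00794, adjusted over the 6 measures 0.0476). Reads in 1594 tRNA genes took 0.00238 ± 5.15e-05% of ipsilateral and 0.00205 ± 0.000194% of contralateral libraries (SD, n = 5 each; exact permutation p = 0.0159, adjusted 0.0476). Reads in 801 microRNA genes took 0.0128 ± 0.00150% and 0.0108 ± 0.00141% in the same order of horns (exact permutation p = 0.0635, adjusted 0.107). With the log2 share of both RNA classes as a covariate edgeR called 0 genes, and 1870 genes had an unadjusted p below 0.05. In that fit all 678 genes kept their sign, at a median log2 fold change of 0.44 and a median SE of 0.12, against 0.53 and 0.094 without the covariate. The tRNA share passed the test between horns and the microRNA share did not, and their part in the results was not tested beyond this fit. The horns were compared as 2 groups, because libraries of the 2 horns that carry the same tag deviated together at 1 of 5 tags only, 8-245. This treats the libraries as independent. The ipsilateral libraries had 5 different best matches among the contralateral ones, mostly under another tag, so a pairing of the horns is not excluded. A fit with the tag as a block was also run.

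The 678 higher genes together took 7.16, 6.29, 6.98, 6.86 and 6.4% of the reads in ipsilateral libraries 2-068, 3-155, 5-137, 7-107 and 8-245. In the contralateral libraries they took 4.46, 5.26, 4.62, 4.73 and 4.57% in the same order of tags, which is kept in all lists of 5 values below. Contralateral library 3-155 was the highest of its horn and the nearest to the ipsilateral ones, and it held the highest contralateral value at 491 of the 678 genes. The log2 fold changes of these genes ran from 0.24 to 1.37 with a median of 0.53 (1.44-fold), 7 of them reached 2-fold, and the horns did not overlap at 618. The 56 lower genes lay between -0.56 and -0.21 with a median of -0.31 (0.805-fold), none reached a 2-fold difference, and the horns did not overlap at 54. Over all genes tested the horns did not overlap, with the ipsilateral side above, at 919 (4.91%), and with it below at 381 (2.04%). The test had chosen the 678 and 56 genes, so these counts describe them and are no support for them.

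Genes for splicing and nuclear speckle proteins, which cut introns out of new transcripts, gave the highest number of calls among the lists. Of 46 tested members 21 were higher and 0 lower, beside 3.63% higher and 0.299% lower of all genes tested. The median was 0.30, against a median of -0.0056 over all genes tested. This list and those below were chosen with earlier results of these data known. Their counts therefore describe the members and are no support. PPIG measured 109, 78.0, 112, 115 and 101 CPM (counts scaled to a common library total) in the ipsilateral libraries, against 47.3, 59.7, 52.4, 53.4 and 44.6 CPM in the contralateral ones. The lowest ipsilateral library, 3-155, still lay above the highest contralateral one, which also carries tag 3-155. The log2 fold change was 1.00 ± 0.12 SE (edgeR adjusted p = 0.00337), and 0.96 without ipsilateral 5-137 (adjusted p = 0.0140). GCFC2, a spliceosome-associated protein, averaged 39.8 ± 6.37 CPM in ipsilateral and 20.2 ± 2.05 CPM in contralateral libraries (SD, n = 5 each), a log2 difference of 0.98 ± 0.12. PRPF38B, a pre-mRNA processing factor, was higher by 0.55 ± 0.07 on the log2 scale.

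The most abundant called genes included other members of the same list. SF3B1, a subunit of the U2 particle that binds the branch point, measured 1647, 1501, 1596, 1712 and 1413 CPM in ipsilateral libraries, against 1209, 1321, 1151, 1293 and 1137 CPM in contralateral ones. Its groups did not overlap, and its log2 fold change was 0.36 ± 0.08 (edgeR adjusted p = 0.0295, and 0.0781 without ipsilateral 5-137). The splicing regulators SRSF10 (0.43 ± 0.08) and RBM39 (0.28 ± 0.07) were higher as well, RBM39 not without ipsilateral 5-137 (edgeR adjusted p = 0.0925). Core members such as PRPF8 (-0.26), SNRNP200 (-0.31) and U2AF2 (-0.15) had values below 0 and did not pass. The RNA-binding proteins MATR3 of the nuclear matrix (0.41 ± 0.08) and HNRNPH1 (0.33 ± 0.07), which are outside this list, were higher in the ipsilateral horn, HNRNPH1 not without 5-137 (adjusted p = 0.0960).

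**Figure D2:**
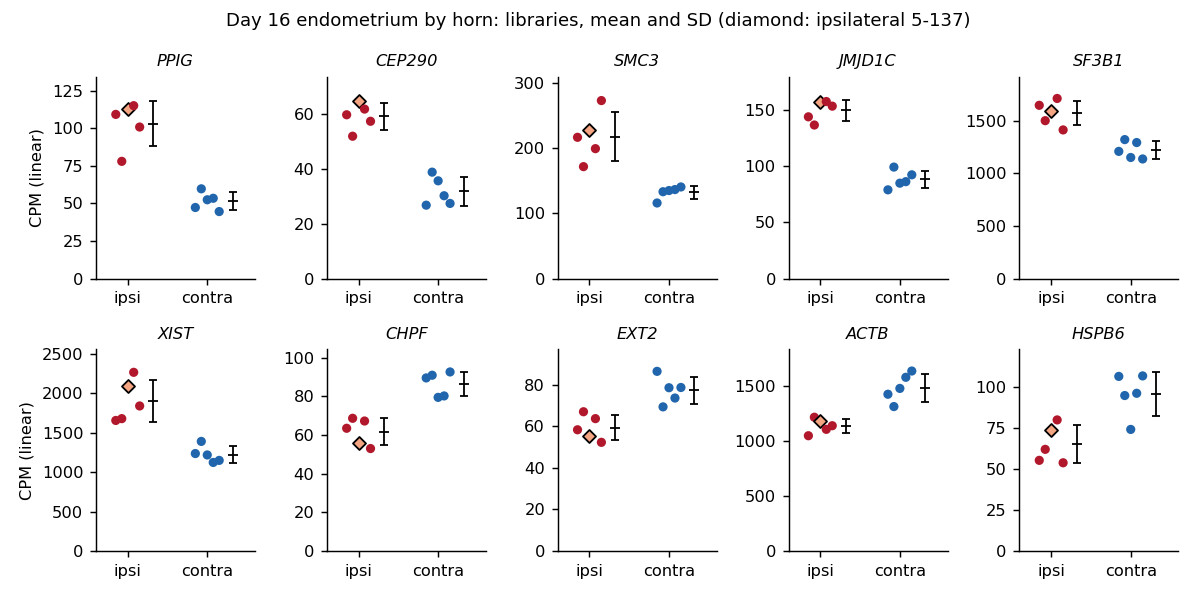
CPM on a linear axis starting at 0 (y) for 10 genes in ipsilateral and contralateral day 16 libraries (x), with 1 point per library, the mean with its SD (n = 5) beside the points and a diamond for ipsilateral 5-137. The horns do not overlap at 9 of these genes, and at HSPB6 ipsilateral libraries reach 80.0 CPM while the lowest contralateral one has 74.2 CPM.

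Of 43 genes for centrosome proteins, which organise microtubules and build the base of cilia, 17 were higher and 0 lower. Their median was 0.33, and of all genes tested 3.63% were higher and 0.299% lower. CEP290 measured 59.9, 52.0, 65.0, 61.9 and 57.5 CPM in ipsilateral libraries, against 26.8, 38.9, 35.7, 30.3 and 27.5 CPM in contralateral ones. Every ipsilateral library lay above every contralateral one, and the log2 fold change was 0.90 ± 0.11 (edgeR adjusted p = 0.00337, and 0.0140 without ipsilateral 5-137). CEP295, which acts in the assembly of centrioles, was higher by 0.64 ± 0.07, CEP70 by 0.66 ± 0.09 and PCM1, the scaffold of centriolar satellites, by 0.57 ± 0.08. CEP162, which sits on the axoneme at the base of the cilium, had a larger difference at a low level, 3.25 ± 0.577 CPM in ipsilateral and 1.498 ± 0.522 CPM in contralateral libraries (SD, n = 5 each; log2 fold change 1.11 ± 0.26, edgeR adjusted p = 0.0371, and 0.0791 without ipsilateral 5-137). CDK5RAP2 (-0.14) and CEP170B (-0.17) did not pass.

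The centrosome genes ODF2L, LRRCC1 and CNTLN, outside the list, were among the 12 highest log2 fold changes of called genes with a mean of 1 or more on the log2 CPM scale. ODF2L averaged 60.1 ± 13.0 CPM in ipsilateral and 30.1 ± 4.73 CPM in contralateral libraries (SD, n = 5 each). The horns did not overlap, though the lowest ipsilateral and the highest contralateral library, both of tag 3-155, lay close together. The log2 fold change was 1.00 ± 0.16 for ODF2L, 0.96 ± 0.16 for LRRCC1 and 0.96 ± 0.20 for CNTLN. CNTLN had 32.6 CPM in ipsilateral 7-107, where the other ipsilateral libraries had 16.4 to 18.7 CPM. Markers of motile ciliated cells, which also carry such proteins at the base of their cilia, gave 0 calls of 15 in either direction, and their summed level was 294 to 875 CPM in ipsilateral and 288 to 808 CPM in contralateral libraries.

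Of 28 genes for cohesin, condensin and the synaptonemal complex, which hold, compact and pair chromosomes, 10 were higher and 0 lower. Their median was 0.44, and of all genes tested 3.63% were higher and 0.299% lower. SMC3 measured 217, 172, 229, 199 and 273 CPM in ipsilateral libraries, against 116, 133, 135, 137 and 141 CPM in contralateral ones. The groups did not overlap, and the log2 fold change was 0.72 ± 0.11 (edgeR adjusted p = 0.00616, and 0.0220 without ipsilateral 5-137). NIPBL, which loads cohesin onto DNA, was higher by 0.52 ± 0.09, ESCO1, which acetylates cohesin, by 0.73 ± 0.11, and SMC6, of the SMC5/6 complex, by 0.67 ± 0.09. SMC4, a condensin core subunit, was higher by 0.92 ± 0.18, although ipsilateral 3-155 at 29.5 CPM lay below contralateral 7-107 at 30.7 CPM. The cohesin subunits STAG1 (0.15) and REC8, a meiotic form (-0.33), did not pass.

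Of 32 mitosis genes, 30 had log2 fold changes above 0, with a median of 0.42, yet 1 passed. This 1 of 32 is near the 3.63% of all genes tested that were higher. Without ipsilateral 5-137 the median was -0.02. That 1 gene was KIF20B, a kinesin of cell division, at 14.5, 11.02, 18.9, 13.4 and 16.0 CPM in ipsilateral libraries, against 6.34, 8.68, 8.00, 8.49 and 7.82 CPM in contralateral ones. It differed by 0.91 ± 0.15 on the log2 scale with all libraries (edgeR adjusted p = 0.00838) and by 0.80 without 5-137 (adjusted p = 0.0228). The summed level of the mitosis list was 497 CPM in ipsilateral 5-137, 278 to 355 CPM in the other ipsilateral and 271 to 355 CPM in the contralateral libraries.

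Of 43 genes for chromatin remodellers and nucleosome-binding HMGN proteins, 16 were higher and 0 lower, beside 3.63% and 0.299% of all genes tested. Their median was 0.20. JMJD1C, a member of a histone demethylase family, measured 144, 137, 157, 158 and 154 CPM in ipsilateral libraries, against 79.0, 99.2, 84.9, 86.3 and 92.4 CPM in contralateral ones. The groups lay far apart next to their spread, and the log2 fold change was 0.76 ± 0.08 (edgeR adjusted p = 0.00337, and 0.0140 without ipsilateral 5-137). ARID4A (0.77 ± 0.10) and ARID4B (0.70 ± 0.07), which bind the retinoblastoma protein and histone deacetylase complexes, were higher together. FAM208A, a core member of the HUSH silencing complex, averaged 161 ± 4.44 CPM in ipsilateral and 106.5 ± 6.53 CPM in contralateral libraries (SD, n = 5 each; 0.59 ± 0.06). The remodelling ATPases CHD4 (-0.14) and SMARCA4 (-0.16) did not pass.

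Beyond the lists, KIAA1551 (also named RESF1, a silencer of endogenous retroviruses in mouse cells) was 1.97-fold higher, with 285 ± 42.6 CPM in ipsilateral and 145 ± 22.9 CPM in contralateral libraries (SD, n = 5 each). ZNF570, a zinc finger protein, ESF1, a nucleolar protein, and METTL4, an adenine methyltransferase, were higher by 0.98 ± 0.11, 0.91 ± 0.16 and 0.98 ± 0.20 on the log2 scale. XIST, the RNA that coats the inactive X chromosome, measured 1656, 1679, 2093, 2267 and 1840 CPM in ipsilateral libraries, against 1236, 1390, 1218, 1123 and 1149 CPM in contralateral ones. Its groups did not overlap, and its log2 fold change was 0.64 ± 0.11 (edgeR adjusted p = 0.00784, and 0.0245 without ipsilateral 5-137). OGT, the enzyme that adds single N-acetylglucosamine sugars to nuclear and cytoplasmic proteins, was higher by 0.38 ± 0.08, but did not pass without ipsilateral 5-137 (edgeR adjusted p = 0.0588). SLC25A36, a mitochondrial nucleotide carrier, was higher by 0.44 ± 0.09.

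The lower genes included enzymes that build proteoglycan sugar chains. Of 37 genes for the synthesis of these glycosaminoglycan chains, 2 were lower and 0 higher, beside 0.299% and 3.63% of all genes tested. Their median was -0.16. CHPF, the polymerizing factor of chondroitin, measured 63.5, 68.7, 55.7, 67.3 and 53.0 CPM in ipsilateral libraries, against 89.6, 91.0, 79.5, 80.2 and 92.7 CPM in contralateral ones. Its groups did not overlap, and its log2 fold change was -0.49 ± 0.09 (edgeR adjusted p = 0.0114, and 0.0324 without ipsilateral 5-137). EXT2, a polymerase of heparan sulfate, measured 58.4, 67.0, 55.3, 63.7 and 52.3 CPM in ipsilateral libraries, against 86.5, 69.4, 78.6, 73.7 and 78.7 CPM in contralateral ones. Its highest ipsilateral and lowest contralateral values both carry tag 3-155, and the log2 fold change of -0.38 ± 0.09 passed with all libraries (edgeR adjusted p = 0.0318) but not without 5-137 (0.0763). HS6ST1 (-0.44 ± 0.14) and CHSY1 (-0.19 ± 0.06), a heparan sulfate sulfotransferase and a chondroitin synthase, did not pass.

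ACTB measured 1047, 1215, 1179, 1105 and 1138 CPM in ipsilateral libraries, against 1424, 1312, 1477, 1578 and 1635 CPM in contralateral ones. Its groups did not overlap, and the log2 fold change was -0.39 ± 0.08 (edgeR adjusted p = 0.0234, and 0.0463 without ipsilateral 5-137). HSPB6, a small heat shock protein of muscle, had the lowest log2 fold change of the named genes that passed, at -0.56 ± 0.13 (adjusted p = 0.0432, and 0.0569 without 5-137), with 65.1 ± 11.6 CPM in ipsilateral and 95.8 ± 13.3 CPM in contralateral libraries (SD, n = 5 each). It was the 1 call among 30 heat shock and unfolded protein response genes (median -0.09) and the 1 call among 16 smooth muscle markers, whose median was -0.27 and whose summed level overlapped at 470 to 1206 CPM in ipsilateral and 616 to 1693 CPM in contralateral libraries.

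Other lower genes included LAMP1, a membrane protein of lysosomes (-0.34 ± 0.08), GDI2, which recycles Rab proteins (-0.27 ± 0.07), and PGAM1, a glycolytic enzyme (-0.25 ± 0.06). The G protein subunit GNA12 (-0.40 ± 0.09), SH3BGRL3 (-0.37 ± 0.07) and the proteasome regulator PSMF1 (-0.37 ± 0.09) were lower as well. So were the deubiquitinase USP22 (-0.29 ± 0.07) and the transcription elongation factor SUPT6H (-0.31 ± 0.07). Without ipsilateral 5-137 PSMF1 and SH3BGRL3 passed (edgeR adjusted p = 0.0348 and 0.0498), and the other 6 of these did not, with adjusted p between 0.0680 and 0.0980.

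Members of other lists lay mostly below 0 without passing. All 40 extracellular matrix genes missed the threshold, with 33 below 0 and a median of -0.25; COL4A1, a basement membrane collagen, averaged 494 ± 64.2 CPM in ipsilateral and 655 ± 119 CPM in contralateral libraries (SD, n = 5 each; -0.41 ± 0.14, edgeR adjusted p = 0.138), and HSPG2, perlecan, was at -0.50 ± 0.17. Of 31 cytosolic ribosomal protein genes 30 lay below 0, with a median of -0.18 and 0 calls. The epithelium markers had a median of -0.18 and 0 calls of 21, and the stromal markers gave 0 calls of 14. The summed level of the epithelium markers was 2503 to 3630 CPM in ipsilateral and 3160 to 3868 CPM in contralateral libraries, and that of the stromal markers was 11750 to 17600 CPM and 15200 to 19910 CPM in the same order of horns. Blood vessel endothelium markers summed to 963 to 1214 CPM in ipsilateral and 869 to 1451 CPM in contralateral libraries, with 0 calls of 16, and the lists for lymphatic endothelium, immune cells, red blood cells, mesothelium, nerve and luteal cells gave 0 calls as well. Epithelium and stroma were present in all 10 libraries, and the part of their proportions in the gene differences was not tested.

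**Figure D3:**
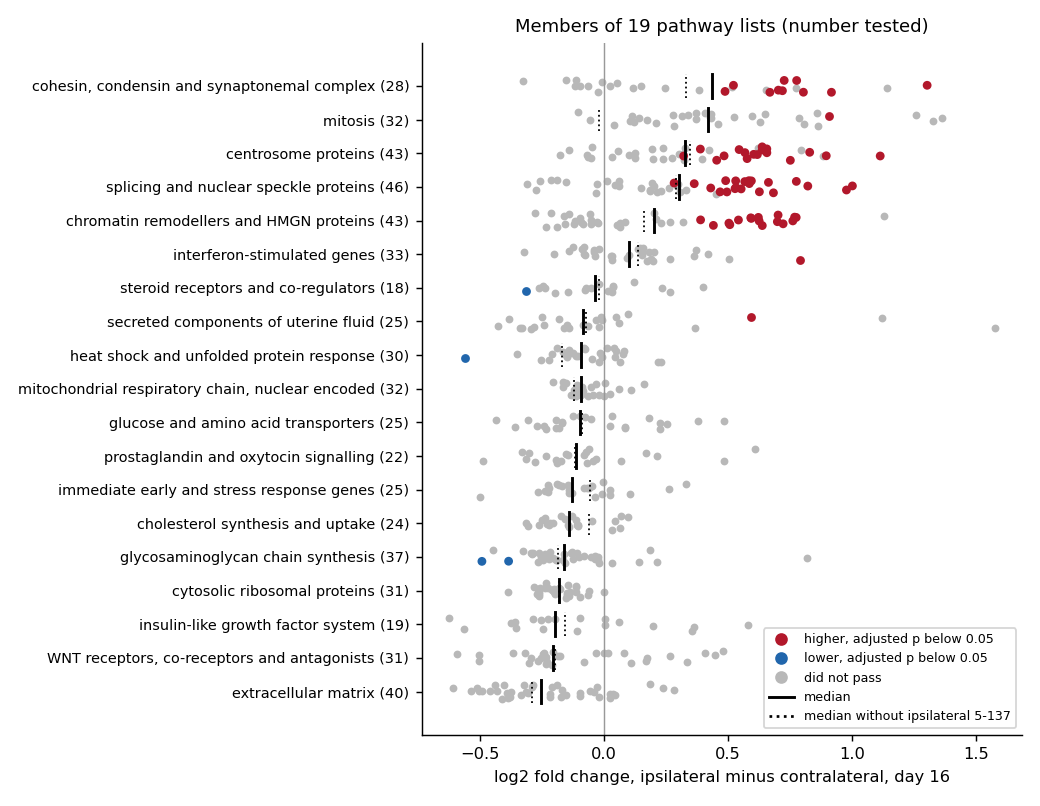
Log2 fold change, ipsilateral minus contralateral, on day 16 (x axis) of each tested member of 19 lists (y axis, number tested in brackets), with 1 point per gene, coloured where edgeR's adjusted p was below 0.05; the solid bar is the median and the dotted bar the median without ipsilateral 5-137. Calls lie to the right in the splicing (21), centrosome (17), chromatin (16) and cohesin (10) lists, and the mitosis median of 0.42 moves to -0.02 without that library.

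The genes at the centre of hormone and conceptus signalling on day 16 did not pass the test. PGR, the progesterone receptor, measured 5.36, 4.20, 6.30, 6.70 and 6.22 CPM in ipsilateral libraries, against 3.87, 6.13, 3.69, 5.18 and 9.203 CPM in contralateral ones. These overlap, and the log2 difference was 0.04 ± 0.25 (edgeR adjusted p = 0.968). ESR1, the estrogen receptor, was at -0.26 ± 0.14 (adjusted p = 0.342) and OXTR, the oxytocin receptor, at -0.31 ± 0.41 (adjusted p = 0.762). OXTR varied within each horn, at 4.62 to 25.9 CPM in ipsilateral and 10.4 to 34.6 CPM in contralateral libraries. HPGD, which inactivates prostaglandins, was at 0.48 ± 0.19 (adjusted p = 0.197), with 0 calls of 22 in the prostaglandin and oxytocin list.

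The interferon-stimulated genes varied between the libraries of each horn. MX1, an antiviral GTPase, measured 161, 166, 74.8, 92.4 and 106 CPM in ipsilateral libraries, against 102, 183, 172, 69.6 and 109 CPM in contralateral ones. High libraries occurred in both horns, and the log2 difference was -0.09 ± 0.29 (edgeR adjusted p = 0.927). ISG15, a ubiquitin-like modifier, was at 0.17 ± 0.36 (adjusted p = 0.864), with 4.25 to 10.02 CPM in ipsilateral and 3.103 to 10.1 CPM in contralateral libraries. Of 33 members 1 was higher, SAMD9 (0.79 ± 0.18, adjusted p = 0.0335, and 0.0695 without ipsilateral 5-137), and the median was 0.10. This 1 of 33 is near the share of higher calls over all genes tested. Markers of the conceptus trophoblast were near 0: of the list, 8 genes had no read in any day 16 library, the summed level was 3.26 to 6.37 CPM in ipsilateral and 2.11 to 4.66 CPM in contralateral libraries, and IFNT2, an interferon tau gene with near-identical copies, was at 1.20 to 2.56 CPM and 0.754 to 2.14 CPM in the same order of horns.

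FGF2, a growth factor of the uterine wall, was the 1 higher call among 25 secreted components of uterine fluid, a share near the 3.63% of all genes tested, with 57.1 ± 10.6 CPM in ipsilateral and 37.9 ± 5.09 CPM in contralateral libraries (SD, n = 5 each; 0.59 ± 0.13, edgeR adjusted p = 0.0315, and 0.0895 without ipsilateral 5-137). IGF1 and IGF2, the insulin-like growth factors, had values of 0.58 ± 0.18 and -0.62 ± 0.24 and did not pass (adjusted p = 0.113 and 0.199). LRP6, a WNT co-receptor, was at 0.45 ± 0.14 (adjusted p = 0.104), its relative LRP5 at -0.32 ± 0.08 (0.0618), and NR3C1, the glucocorticoid receptor, at 0.23 ± 0.10 (0.234). The lists of the insulin-like growth factor system, WNT receptors and antagonists, glucose and amino acid transporters, cholesterol synthesis, the respiratory chain and immediate early genes gave 0 calls in either direction.

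Library 5-137 of the ipsilateral horn carried some genes at levels above those of all other day 16 libraries. UPK1B, a uroplakin of surface membranes, measured 174 CPM there, against 0.877 to 1.94 CPM in the other ipsilateral and 0.844 to 2.72 CPM in the contralateral libraries. TDGF1, a co-receptor of nodal, measured 700.3 CPM there, against 60.0 to 182 CPM in the other ipsilateral and 94.2 to 195 CPM in the contralateral libraries. The proliferation genes TOP2A (22.9 CPM) and MKI67 (13.7 CPM) lay above all other day 16 libraries too, which held at most 5.07 and 8.25 CPM. The log2 fold changes of these 4 genes were 4.46 ± 1.55, 0.80 ± 0.64, 1.33 ± 0.59 and 0.37 ± 0.62 in this order, none passed, and without 5-137 they were -0.24, -0.38, 0.30 and -0.40. UPK1B is also a mesothelium marker. The other markers of that list summed to 96.3 CPM in this library. That sum was 71.6 to 160.5 CPM in the other ipsilateral and 75.3 to 157 CPM in the contralateral libraries. WT1 alone measured 89.0 CPM in ipsilateral 5-137, where MSLN had 1.33 and UPK3B 4.3 CPM. The sum thus mostly follows WT1 and says little of the other markers. Nerve and Schwann cell markers summed to 256 CPM in this library, 112 to 133 CPM in the other ipsilateral and 122 to 186 CPM in the contralateral libraries. These 4 genes were chosen after their values were seen, and the part of such cells in them was not tested.

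**Figure D4:**
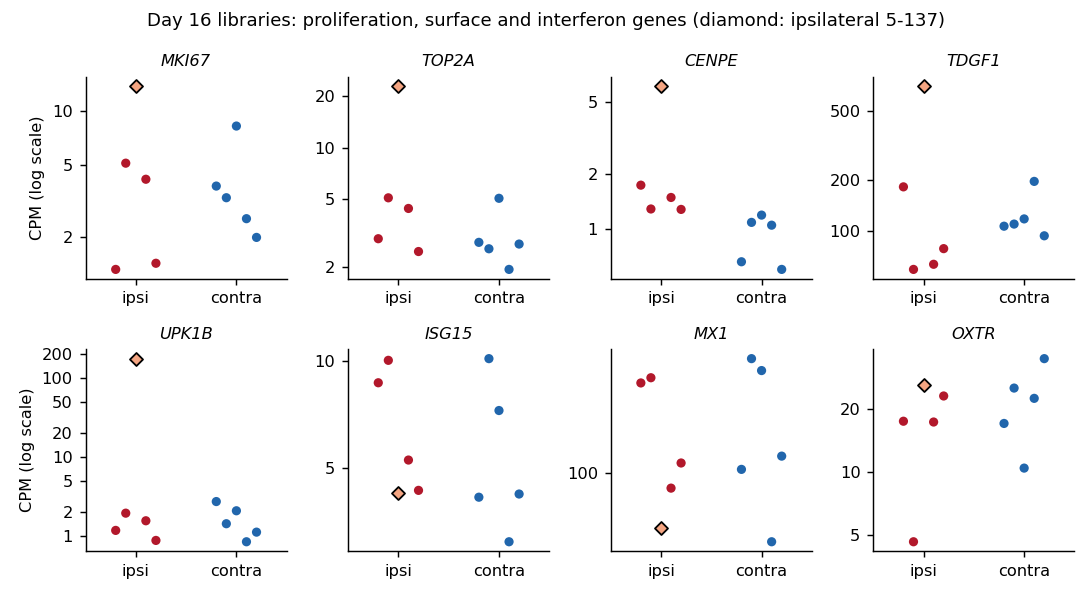
CPM on a log axis (y) of 8 genes in ipsilateral and contralateral day 16 libraries (x), with 1 point per library and a diamond for ipsilateral 5-137. At UPK1B that library lies at 174 CPM and all others at 2.72 CPM or less, while at OXTR it lies within the range of the contralateral horn.

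Leaving out 5-137 also brought 10 genes past the threshold that had missed it, 7 higher and 3 lower. Among them was NHS, an actin-regulating protein, with 171, 170, 108, 167 and 135 CPM in ipsilateral libraries, against 81.6, 122, 107, 72.8 and 98.2 CPM in contralateral ones. Library 5-137 was the lowest of its horn and fell within the contralateral range. The log2 fold change was 0.64 ± 0.16 with it (edgeR adjusted p = 0.0537) and 0.73 without it (adjusted p = 0.0333). GAPDH, a glycolytic enzyme, was at -0.20 ± 0.12 with it (adjusted p = 0.409), where 5-137 had the highest value of all at 315 CPM, and at -0.33 without it (adjusted p = 0.0498). MGAT1, an enzyme of N-glycan synthesis, was at -0.23 and -0.30 in the same order (adjusted p = 0.121 and 0.0454).

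The horn difference was also fitted on each of the other days, from that day's own 10 libraries, which share no library with day 16. Called genes numbered 2884 on day 5 (15.3%), 1624 on day 7 (8.68%), 742 on day 13 (3.97%) and 734 on day 16 (3.93%). All 678 genes higher on day 16 had the same sign on each other day. Of them 596 were called higher on day 5, 544 on day 7 and 464 on day 13, which is 87.9, 80.2 and 68.4% of the day 16 calls. They make up 29.6% of the 2012 higher calls of day 5, 46.0% of the 1184 of day 7 and 75.4% of the 615 of day 13, where higher calls were 10.7, 6.33 and 3.29% of all genes tested. Their median log2 fold change was 0.65 on day 5, 0.59 on day 7, 0.52 on day 13 and 0.53 on day 16. Of the 56 lower genes, 54, 56 and 56 had the same sign on days 5, 7 and 13, and 23, 26 and 17 were called lower (41.1, 46.4 and 30.4% of the 56, and 2.64, 5.91 and 13.4% of each day's lower calls). Lower calls were 4.63, 2.35 and 0.680% of all genes tested on those days. All 4 days called 404 genes higher and 6 lower, and 55 genes were called on day 16 and on no other day.

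**Figure D5:**
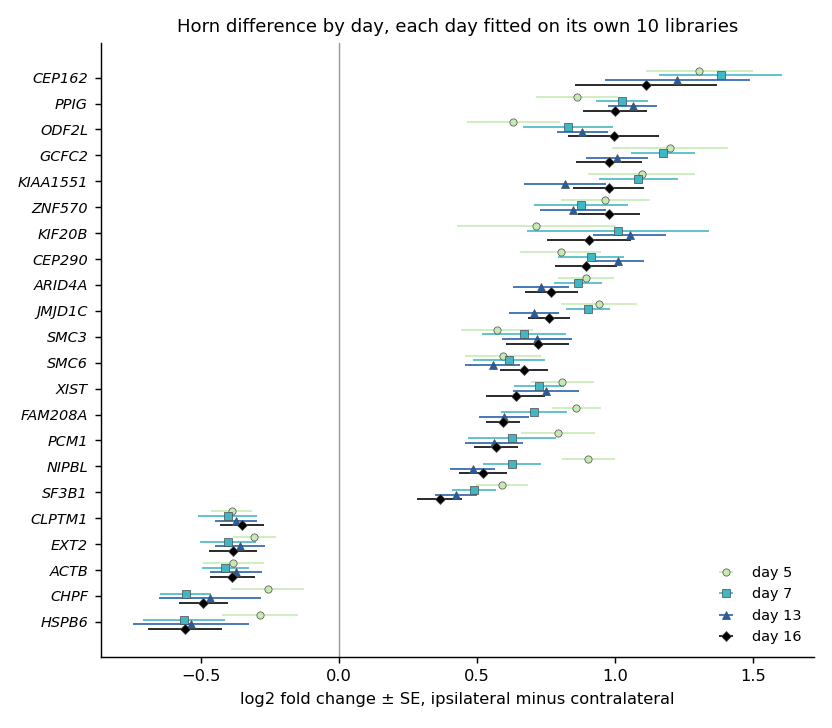
Log2 fold change, ipsilateral minus contralateral, with its SE (x axis) for 22 genes (y axis) on days 5, 7, 13 and 16, each day fitted on its own 10 libraries. The 17 genes above lie to the right of 0 and the 5 below to the left of 0 on all 4 days.

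A test of the difference itself found 0 of 20356 genes (0.0%) whose horn difference on day 16 departed from the mean of the horn differences of days 5, 7 and 13 in edgeR, with 414 genes at an unadjusted p below 0.05 (2.03%). DESeq2 called 1 gene, UPK1B, which was high in ipsilateral library 5-137, and limma-voom called 0. PPIG differed by 0.86, 1.02, 1.06 and 1.00 on days 5, 7, 13 and 16, and CHPF by -0.26, -0.55, -0.47 and -0.49. LRP6 was at 1.13, 0.60, 0.47 and 0.45, and passed on days 5 and 7 (edgeR adjusted p = 0.00350 and 0.00362). NR3C1 was at 0.67, 0.67, 0.34 and 0.23, and passed on the same days (adjusted p = 0.0112 and 0.00509). For neither gene did day 16 depart from the mean of the other days beyond the threshold (differences of -0.27 and -0.31). FGF2 was at 1.13, 0.71, 0.65 and 0.59, a difference of -0.22 from the mean of the other days.

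In the reference annotation the median locus length was 55.6 kb for the genes higher in the ipsilateral horn (625 of 678 with a value) and 19.03 kb for the lower ones (53 of 56), against 23.5 kb for all genes tested (15615 of 18700). Loci under 10 kb made up 4.48% of the higher and 35.8% of the lower genes, against 27.99% of all. Of 290 zinc finger genes with names starting in ZNF, a family picked after values were seen, 41 (14.1%) were higher and 1 lower, with a median of 0.05, beside 3.63% higher and 0.299% lower of all genes tested; no test was run on the family. Of the 734 called genes, 672 were matched as protein coding, 5 as long non-coding RNAs and 54 had no match.

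The calls depended on single libraries. Leaving out 1 library at a time left 295 of the 678 higher genes and 1 of the 56 lower genes, CHPF, past the threshold in all 10 fits, while every sign was kept in each fit. Higher calls numbered 313 without contralateral 8-245, 322 without contralateral 2-068, 411 without contralateral 7-107 and 421 without contralateral 5-137. They numbered 418 without ipsilateral 2-068, 427 without ipsilateral 5-137, 489 without ipsilateral 7-107, 568 without ipsilateral 3-155 and 609 without ipsilateral 8-245. Without contralateral 3-155 they rose to 753. Each of these fits also has 1 library fewer. In the same 10 fits the splicing list had 14 to 22 higher members, the chromatin list 13 to 17, the centrosome list 8 to 19 and the cohesin list 4 to 8, each with its lowest count without contralateral 8-245 (for chromatin and cohesin, also without contralateral 2-068). Of the 48 genes named here that passed, 24 passed in all 10 fits, among them PPIG, CEP290, SMC3, JMJD1C, XIST and MATR3. The others lost the call in at least 1 fit, 24 without contralateral 8-245, 24 without contralateral 2-068, 22 without contralateral 7-107, 20 without ipsilateral 2-068, 17 without ipsilateral 7-107 and 16 without ipsilateral 5-137.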

How the data were processed

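The deposited values are raw read counts per gene, which the authors made with FastQC, HISAT2 and featureCounts on genome build UMD3.1 according to the submitters' processing notes; versions and settings are not given in the sources used here. By the labels' protocols, RNA of homogenised endometrium was treated with DNase and made into stranded mRNA libraries. The table has 32671 named genes, of which 3987 had no read. The row of the mitochondrial genome (0.154 to 0.224% of reads on day 16) stayed out of library sizes and tests, and 27 names that had turned into dates were not used. Totals were 30.5 to 33.9 M on day 16 and 27.0 to 64.4 M over all 40 libraries. Gene names were matched to the RefSeq gene table of a later build (20070 by symbol, 631 by synonym), which gave gene class and locus length; no coordinates were taken from it. Genes with near-identical copies are uncertain, since how reads matching several genes were counted is unknown here. Groups follow the labels, which put 5 heifers in each, with the same 5 tags in both horns of a day.

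The main test was edgeR 4.0.16 (R 4.3.3), a quasi-likelihood fit of the 10 day 16 libraries in 2 groups, with TMM scaling, filterByExpr and Benjamini-Hochberg adjusted p below 0.05 over all genes tested, as ipsilateral minus contralateral. The difference from the other days is a contrast over all 40 libraries in 8 groups; each other day was also fitted on its own libraries. Standard errors come from the fold change and its F statistic. The alternatives were DESeq2 1.42.0, limma-voom (limma 3.58.1), RLE scaling, no filter, a replicate block, all 40 libraries with and without that block, 2 covariates and each library left out. The 34 lists (787 of 806 entries in the table) had no set test. Named genes are the 12 highest and 12 lowest log2 fold changes and the 8 most abundant called genes in each direction (mean log2 CPM of at least 1), the most changed of those called only without 5-137, up to 4 members of each list by smallest p, and 7 genes always named. This gave 178 genes, of which the text uses a part; some are not reported here. The members named to show values near or below 0 in the splicing, centrosome, cohesin and chromatin lists were chosen after their values were seen. Members and lists were chosen with earlier results of these data known.

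On simulated data with known changes (18481 genes), the day 16 fit found 24.6, 60.6 and 92.1% of genes altered 1.5-fold, 2-fold and 4-fold, with 9 false among 123 calls. For the contrast with the other days (20130 genes) these shares were 14.9, 53.7 and 77.3%, with 3 false among 100. The simulated counts were independent between libraries, with about as many genes raised as lowered. They held no library set apart and no pairing of the horns, so these rates need not hold for the real libraries.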

Additional observations from a re-analysis of the deposited data

Results flagged for a closer look

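Single libraries that lay far from the other 4 of their horn were looked for with Dixon's test at the 95% level over 182 groups of 5 values (82 genes, 6 library measures, the sums of 2 lists and the first principal component, in each horn), of which chance flags about 1 in 20. It marked 16 values, and 7 of these belonged to ipsilateral library 5-137. UPK1B, TDGF1 and TOP2A were chosen after their values were seen, and MGAT1 and SYNJ1 because they passed only without this library. The first principal component had already set it apart. The chance rate therefore does not apply to these 7 marks, and they are no support for setting apart library 5-137. That library was the lowest of its horn on the first principal component, at 6.91 where the others lay between 50.3 and 56.8. It was the highest of its horn at UPK1B (174 CPM), TDGF1 (700.3 CPM), TOP2A (22.9 CPM), CENPE, a mitotic kinesin (6.08 CPM, others 1.29 to 1.75 CPM), and MGAT1 (88.9 CPM, others 71.5 to 75.1 CPM), and the lowest at SYNJ1, a phosphatase of membrane traffic (166 CPM, others 234 to 255 CPM). Ipsilateral library 3-155 was the lowest of its horn at PRPF38B (126 CPM, others 141 to 147 CPM), SMC6 (43.6 CPM, others 53.1 to 56.7 CPM) and ZNF570 (14.2 CPM, others 19.1 to 20.6 CPM). Contralateral 3-155 was the highest of its horn at MATR3 (608 CPM, others 501 to 526 CPM). Ipsilateral 7-107 was the highest at CNTLN (32.6 CPM) and CHD4 (429 CPM, others 372 to 387 CPM) and the lowest at GDI2 (306 CPM, others 345 to 358 CPM). Contralateral 7-107 was the highest of its horn at TDGF1 (195 CPM, others 94.2 to 118 CPM), and contralateral 5-137 at TOP2A (5.04 CPM, others 1.93 to 2.78 CPM).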

How the results depend on the processing

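The 734 calls of day 16 (678 higher, 56 lower) became 1732 (1251 and 481) in DESeq2, 440 (434 and 6) with log2 depth as a covariate, and 0 (0 and 0) both with the microRNA and tRNA covariate and with the tag as a replicate block. Lower calls were 17 without the filter on low counts and 135 in the fit of all 40 libraries. Leaving out 1 library gave 314 to 845 calls, 313 to 753 higher and 1 to 92 lower. RLE scaling and limma-voom moved these counts by less than 1.5 times (709 and 714 calls). In that block fit 2993 genes had an unadjusted p below 0.05 and all 734 kept their sign. The median log2 fold change was 0.53 for the higher and -0.31 for the lower genes, as without the block. The median SE of the higher genes was 0.103 against 0.094, and the block uses 4 more degrees of freedom. With the tag as a block over all 40 libraries, edgeR called 674 genes on day 16, 614 higher and 60 lower. Of the main calls, 517 of the 678 and 22 of the 56 passed there. That fit takes its spread from all 4 days. Libraries of the same tag correlated at -0.271 to 0.555 in their deviations from the horn means, over 0.1 in 1 of 5 tags. Of the 5 ipsilateral libraries, 1 correlated best with its own tag. Their best matches were 5 different contralateral libraries, at 0.4 to 0.643. Ipsilateral 2-068 matched contralateral 3-155 best, 3-155 matched 5-137, 5-137 matched 7-107 and 7-107 matched 2-068. Whether the tags pair the horns rightly was not tested, and the block fits rest on these tags. The contrast with the other days, 0 genes in edgeR, gave 1 in DESeq2 and 0 under every other alternative run, the replicate block and day 13 alone included. Of the 82 genes compared in the text, 7 changed sign under an alternative, and none of these 7 had passed. ISG15 ran between -0.036 (without ipsilateral 3-155) and 0.48 with 1 library left out, MX1 between -0.24 and 0.083, PGR between -0.083 and 0.28, MKI67 between -0.40 and 0.82, TDGF1 between -0.38 and 1.04 and UPK1B between -0.24 and 4.77, with the lowest of the last 3 without ipsilateral 5-137. MX1 was at 0.22, MKI67 at -0.86, TDGF1 at -0.96, TOP2A at -0.070 and UPK1B at -2.12 with the microRNA and tRNA covariate, and MKI67 at -0.47 with the depth covariate and -0.0027 in limma-voom. The cause was not tested. Depth of 30.5 to 33.9 M reads and 5 libraries a horn set the precision.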
